A study of Mus musculus with 21 samples.

Results

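Collagen chain genes were followed in RNA from the mouse hippocampus after the circulating CD8+ T cells of the mice had been changed. A gene was taken where its symbol is Col, a number, the letter a and a number, which gave 44 of the 24411 genes in each of 2 deposited tables. They were split into 11 fibrillar, 6 basement membrane and 27 other collagens. A mean normalized count of 10 or more was required for testing, where a normalized count is a gene's reads divided by the library's size factor. This left 39 members in the transfer table and 34 in the depletion table. Just inside the limit stood Col4a4 with a mean of 11.6 and just outside it Col9a1 with 7.47 in the transfer table, against Col13a1 with 10.8 and Col7a1 with 9.06 in the depletion table.

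All 21 mice were male and wild type, and 1 hippocampus of each was used after perfusion. In the transfer experiment, B6.SJL-Ptprca Pepcb/BoyJ recipients of 4 months were given CD8+ T cells from C57BL/6J donors of 22 to 28 months (aged T mice, n = 5) or of 3 to 4 months (young T mice, n = 6). Both of these groups had first been treated with a CD8a antibody on days -11 and -7, so neither is an untreated young brain. In the depletion experiment, mice of 22 to 24 months were injected every 4 days, either with the CD8a antibody (n = 5) or with IgG2b, a rat antibody of matched isotype (n = 5). The labels list each library as a sample of its own without saying more about its source, so p-values measure the spread between these samples. The design text states the question as whether aged circulating CD8+ T cells alter the young hippocampus, and whether their depletion alters the aged one.

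Collagens are secreted or membrane proteins whose alpha chains wind around each other into a stiff helix. Fibrillar collagens build the tensile fibres of connective tissue, which in the brain is found mainly in the meninges and around larger vessels, where fibroblasts make most of it. Type IV collagens form the sheet under endothelial cells and around pericytes that is called the basement membrane, and the other collagens decorate fibrils, bind cells to matrix or stay in cell membranes.

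Depth was 12361933 to 15055422 reads per library in aged T mice, against 11232442 to 14911138 in young T mice. With the CD8a antibody it was 9957822 to 12136146 reads, against 11103024 to 14375029 with IgG2b. In CPM, that is reads scaled to a library total of 1000000, collagen chains together took 266 to 421 (median 346) in aged T mice and 274 to 810 (median 420) in young T mice. With the CD8a antibody they took 180 to 368 (median 277), against 219 to 242 (median 233) with IgG2b. Markers of hippocampal neurons were abundant in every library, with summed normalized counts of at least 9288 in aged T, 10652 in young T, 7663 in antibody-treated and 8915 in IgG2b-treated mice. T cell markers were near 0, with the 7 of 9 that the tables list summing to at most 4.50 normalized counts in aged T, 7.77 in young T, 14.5 in antibody-treated and 10.2 in IgG2b-treated mice. The library of young T replicate 1 stood apart in several fibrillar collagens, and the values that move most without it are given both ways.

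Per kilobase of transcript, the most abundant collagen in all 4 groups was Col25a1, a membrane collagen made by neurons. Its mean level was 143 normalized counts per kilobase in aged T mice, 138 in young T mice, and 94.1 with the CD8a antibody against 114 with IgG2b. Col9a3, a chain of the fibril-associated type IX collagen, followed in 3 of these groups, with a level of 132 per kilobase in aged T mice, 92.6 with the antibody and 48.8 with IgG2b. In young T mice Col9a3 stood at 93.5 per kilobase, beside 101 for Col4a2 and 93.6 for Col1a2. The Col1a2 level rests largely on young T replicate 1, with 1870 normalized counts, where the next library had 326. The 5 members under the limit in the transfer table (Col10a1, Col17a1, Col28a1, Col6a6 and Col9a1) ranged between 0 and 15.5 normalized counts per library. In the depletion table Col20a1, Col24a1, Col4a3, Col4a4 and Col7a1 joined them, with a range over these 10 members of 0 to 25.2.

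The first comparison asked how collagen transcripts of the young hippocampus differed between recipients of aged and of young T cells. The fibrillar chains lay lower in aged T mice, with 11 of 11 members below 0 and a median log2 difference of -0.78. Type IV chains had 4 of 6 members below 0 and a median of -0.42, and the other collagens 17 of 22 and a median of -0.24. Over the 39 members, 32 lay below 0 with a median of -0.30, against 51% of 14162 genes and a median of -0.0045 over all genes tested. Longer transcripts lay lower across all genes (Spearman rho -0.512), and the fitted trend with length had a median of -0.10 over the collagens. No collagen passed the test (limma-trend on log2 of normalized count + 1, Benjamini-Hochberg adjusted over all genes, 0 of 39 called), and 0% of all genes did. At an unadjusted p under 0.05, 7 of 39 members lay lower, where 3.96% of all genes did, and 0 of 39 lay higher, where 4.29% did. edgeR, DESeq2 and limma-voom also called 0 members and 0% of all genes. At an unadjusted p under 0.05 in either direction they had 10 of 39, 10 of 44 and 7 of 39 members, where 8.88%, 8.07% and 8.28% of all genes were. DESeq2 gave no p for Col1a1, which is counted among the 44, while the 8.07% is over genes with a p. In 0 of 39 members did the groups fail to overlap, where 0.24% of all genes lay wholly lower and 0.459% wholly higher in aged T mice.

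**Figure D1:**
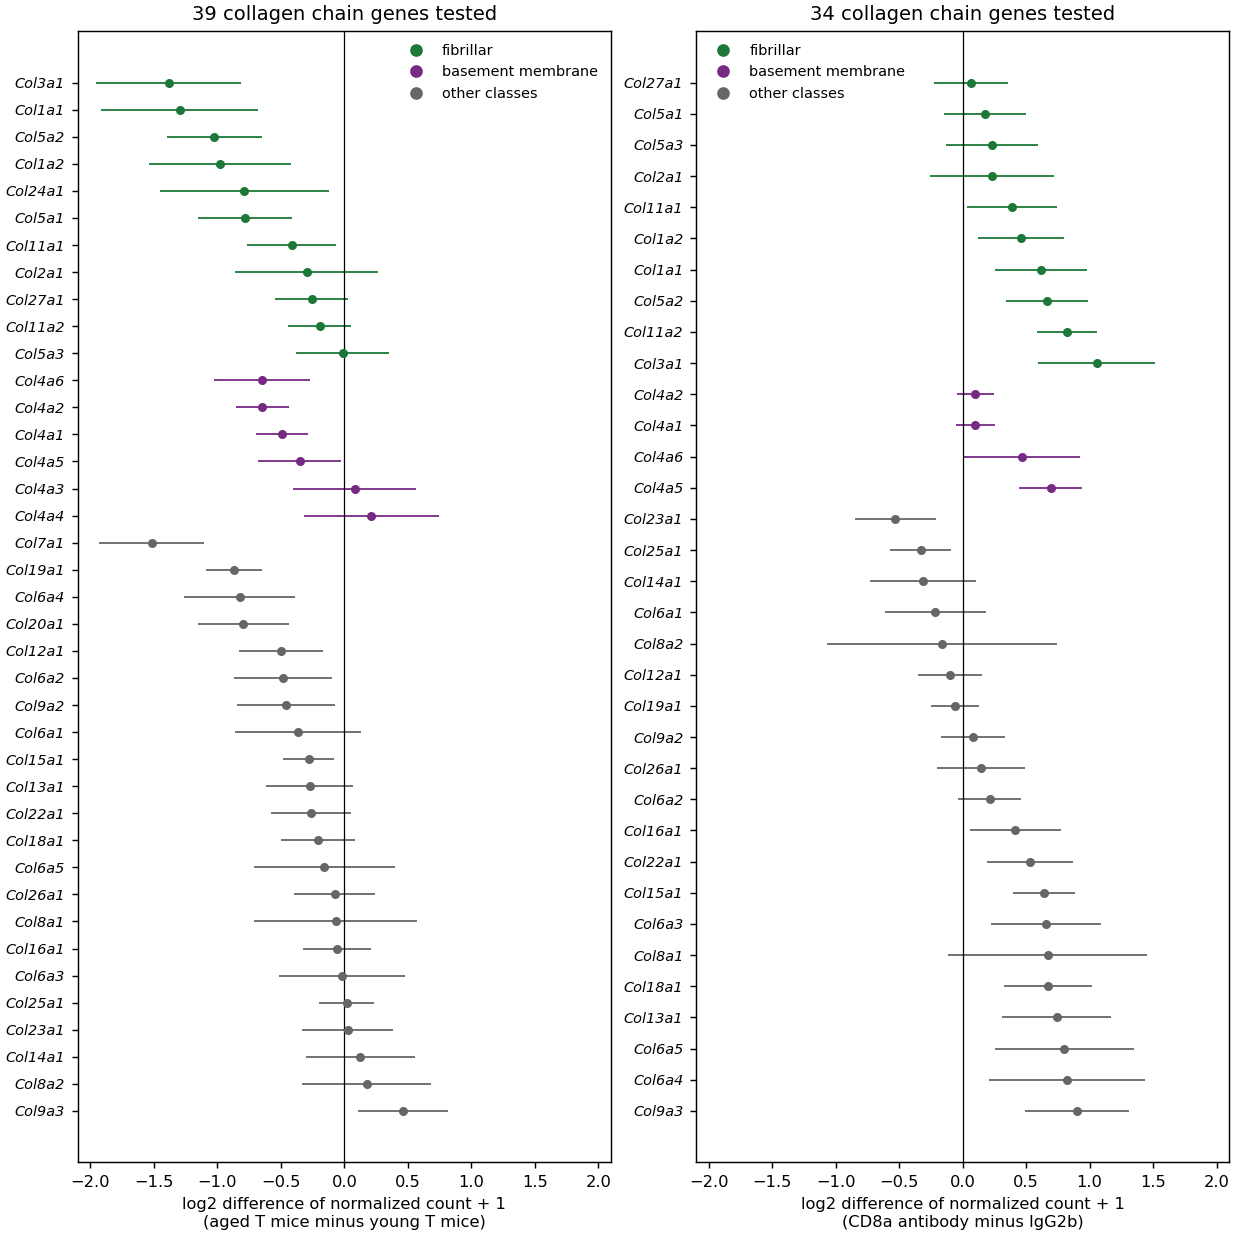
Log2 differences of the tested collagen chain genes with their standard errors, for aged T minus young T mice (left, 39 genes, n = 5 and 6) and CD8a antibody minus IgG2b (right, 34 genes, n = 5 and 5), ordered by class and value. All 11 fibrillar chains lie below 0 on the left and all 10 tested fibrillar chains lie above 0 on the right, and no single gene passed the adjusted test.

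Type I collagen, the main fibril of skin, bone and meninges, is built from the chains of Col1a1 and Col1a2. Col1a1 had 86.0, 95.3, 65.3, 46.6 and 43.5 normalized counts in aged T mice, against a lowest value of 57.9, a median of 119 and a highest of 1614 in young T mice. The highest value was that of young T replicate 1, and the other 5 young T libraries lay between 57.9 and 140, overlapping with the aged T libraries. This gave a log2 difference of -1.30 (SE 0.62, adjusted p = 0.600 by limma), and of -0.63 without young T replicate 1. Its unadjusted p by limma was 0.053 with all libraries and under 0.05 without that library. The authors' deposited table gives no p for Col1a1 in this experiment.

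Col1a2 had 255, 229, 205, 82.1 and 84.2 normalized counts in aged T mice, against a lowest of 125, a median of 275 and a highest of 1870 in young T mice. Here too replicate 1 of the young T mice was highest, and the next library had 326. On the log2 scale it lay at -0.98 (SE 0.56, adjusted p = 0.628 by limma), and -0.45 without that library. The ratio of Col1a1 to Col1a2 counts, which is not scaled to length, had a median of 0.416 in aged T and 0.450 in young T mice, with 0.863 in young T replicate 1.

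Col3a1 encodes type III collagen of elastic tissues and vessel walls. It had 64.3, 67.7, 20.3, 14.2 and 9.06 normalized counts in aged T mice, against a lowest of 27.3, a median of 60.1 and a highest of 275 in young T mice. Of the aged T libraries, 3 lay under the lowest young T library and the other 2 lay near the young T median. Aged T mice differed by -1.38 on the log2 scale (SE 0.57, adjusted p = 0.600 by limma). Without young T replicate 1 the difference was -0.99 and its unadjusted p by limma was no longer under 0.05. The same held for its p without aged T replicate 3, 4 or 5.

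Col5a2, a chain of the type V collagen that sets fibril width, had 70.0, 53.5, 65.3, 28.4 and 30.8 normalized counts in aged T mice. In young T mice the lowest value was 42.7, the median 109 and the highest 191. The groups overlapped, with all 5 aged T libraries under the young T median. The log2 difference was -1.02 (SE 0.37, adjusted p = 0.600 by limma). Col5a1, its partner chain, averaged 118 ± 70.3 in aged T and 200 ± 94.9 in young T mice (SD, n = 5 and 6), a log2 difference of -0.78 (SE 0.37). Of the remaining fibrillar chains, the cartilage-type chain Col11a1 had a log2 difference of -0.42, its partner Col11a2 -0.19, and Col5a3 -0.01. Without young T replicate 1 they lay at -0.12, -0.032 and 0.11. Col2a1, the main cartilage fibril, lay at -0.30 with all libraries and at 0.22 without that library.

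**Figure D2:**
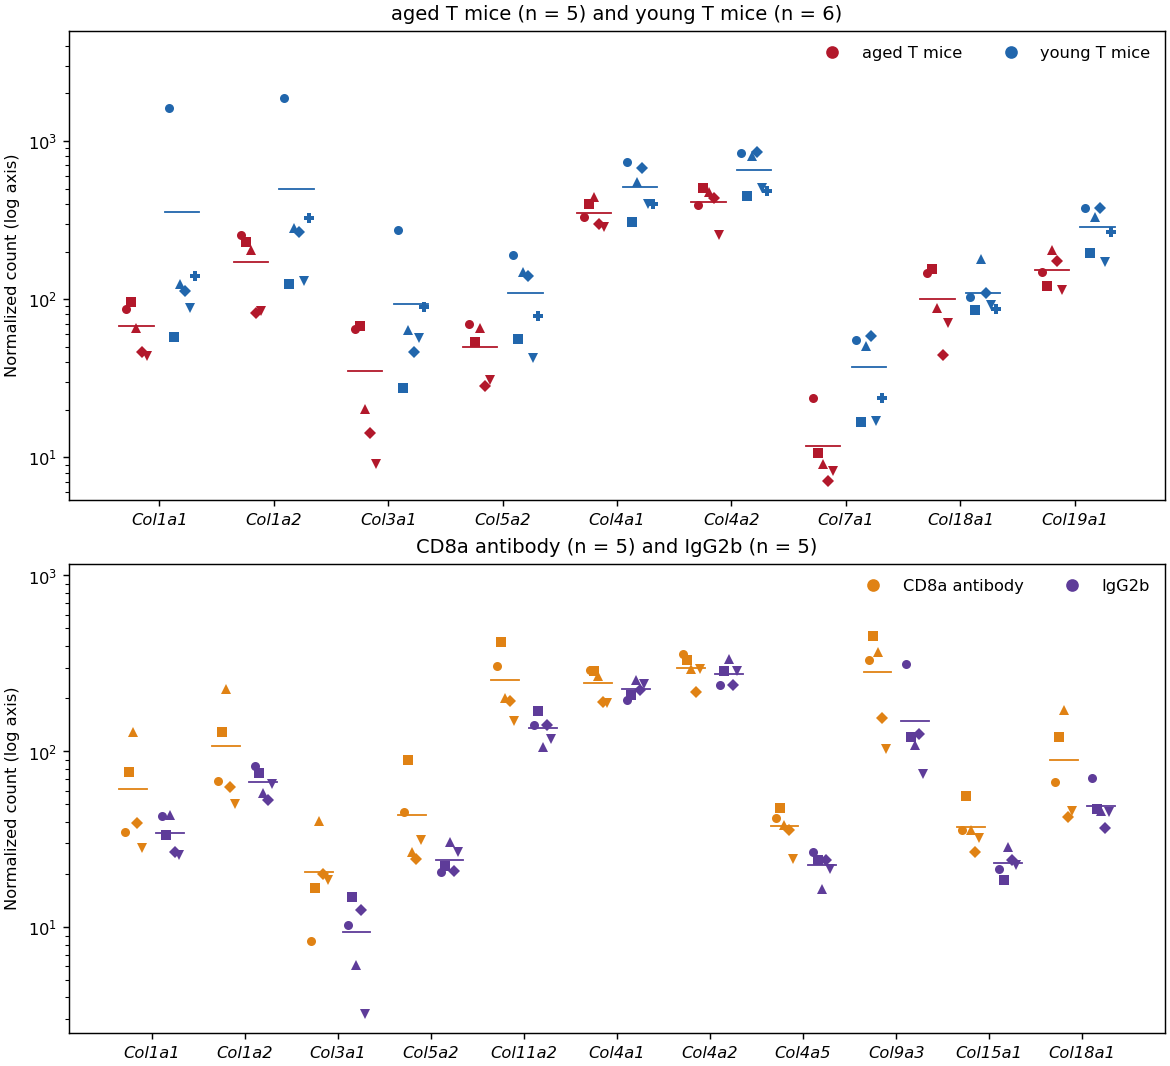
Normalized counts on a log axis of the collagens described in full, for aged T and young T mice (top) and for CD8a antibody and IgG2b (bottom), with 1 symbol shape per replicate number and a line at the group mean. Young T replicate 1 (circle) stands at 1614 for Col1a1 and 1870 for Col1a2, and groups overlap in every gene plotted.

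The promoters of Col1a2 and Col3a1 are shown because both chains were among the lower ones, and they look unlike each other. The windows run from 250 bases before to 50 after the start of each gene as RefSeq places it (GRCm38.p6, the assembly behind mm10), where 35 of 44 members were found. GENCODE vM21, used here for gene positions, places the start elsewhere for Col4a1, Col19a1 and Col11a2, whose windows are shown further on. Col1a2 is at chr6:4505368-4505667 and Col3a1 at chr1:45311288-45311587, both on the plus strand, and capitals mark 1 of 3 common promoter motifs, searched on both strands.
Col1a2: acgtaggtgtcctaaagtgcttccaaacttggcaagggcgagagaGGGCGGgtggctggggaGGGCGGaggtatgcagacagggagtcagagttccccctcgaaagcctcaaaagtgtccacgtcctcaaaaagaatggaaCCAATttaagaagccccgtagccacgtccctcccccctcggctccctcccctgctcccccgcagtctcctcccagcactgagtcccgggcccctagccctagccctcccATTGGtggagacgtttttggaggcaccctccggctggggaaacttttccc
Col3a1: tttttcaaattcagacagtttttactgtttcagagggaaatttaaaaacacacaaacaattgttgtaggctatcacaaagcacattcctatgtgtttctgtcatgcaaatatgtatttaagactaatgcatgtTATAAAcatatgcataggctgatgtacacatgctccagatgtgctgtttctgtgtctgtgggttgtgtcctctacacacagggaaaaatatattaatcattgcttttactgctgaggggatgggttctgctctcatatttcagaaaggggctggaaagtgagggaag
The first motif has the letters CCAAT and is found at 2 places in Col1a2 and nowhere in Col3a1, and 37.4% of 32817 promoter windows of this length held it. A GC box, with the letters GGGCGG, is also found at 2 places in Col1a2 and nowhere in Col3a1, and 35.6% of the windows held one. The third, called a TATA box here where its letters are TATAAA, is found once in Col3a1 and nowhere in Col1a2, and 13.6% of the windows held one. Among 38 windows of collagen genes the counts were 13, 23 and 5. Marked stretches do not overlap each other. A match of letters describes the window and shows no binding.

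Col4a1 and Col4a2 encode the chains of the type IV network found in nearly all basement membranes. Col4a1 had 329, 402, 445, 297 and 286 normalized counts in aged T mice, against a lowest of 306, a median of 475 and a highest of 736 in young T mice. Its log2 difference was -0.49 (SE 0.20, adjusted p = 0.600 by limma). Col4a2 had 396, 506, 478, 436 and 253 in aged T mice, against a lowest of 449, a median of 655 and a highest of 847 in young T mice. All 5 aged T libraries lay under the young T median in both genes, and the groups overlapped. The log2 difference of Col4a2 was -0.65 (SE 0.21, adjusted p = 0.600 by limma). The count ratio of Col4a2 to Col4a1 had a median of 1.20 in aged T and 1.26 in young T mice, with ranges of 0.883 to 1.47 and 1.14 to 1.47.

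This gene pair lies head to head on chromosome 8 of the mouse, and the annotated genes overlap by 85 bases (GENCODE vM21, GRCm38). Their promoter windows, shown for this overlap, are chr8:11312777-11313076 on the minus strand for Col4a1 and chr8:11312555-11312854 on the plus strand for Col4a2, and they share the 78 bases at chr8:11312777-11312854.
Col4a1: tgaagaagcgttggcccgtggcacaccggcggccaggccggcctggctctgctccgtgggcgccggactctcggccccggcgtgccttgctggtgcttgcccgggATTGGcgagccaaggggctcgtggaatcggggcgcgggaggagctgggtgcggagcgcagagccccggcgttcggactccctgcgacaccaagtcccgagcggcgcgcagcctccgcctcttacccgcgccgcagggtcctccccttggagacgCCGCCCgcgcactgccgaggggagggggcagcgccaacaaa
Col4a2: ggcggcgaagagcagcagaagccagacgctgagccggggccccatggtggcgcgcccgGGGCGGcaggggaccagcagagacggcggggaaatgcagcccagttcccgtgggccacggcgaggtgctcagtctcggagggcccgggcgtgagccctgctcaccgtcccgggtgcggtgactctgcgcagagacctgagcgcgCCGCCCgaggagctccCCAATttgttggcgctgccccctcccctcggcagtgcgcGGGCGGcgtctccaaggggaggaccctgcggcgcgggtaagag
Each holds 1 CCAAT box, at different places, and the GC box of the Col4a1 window is the last of the 3 in the Col4a2 window, read from the other strand. Reads from the overlapping ends can be assigned to the right gene only by strand, and how strand was used in counting was not stated in the labels.

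The other type IV chains sit in pairs of the same kind. Col4a6 and Col4a5, which are 1274 bases apart on chromosome X, had log2 differences of -0.65 (SE 0.38) and -0.35 (SE 0.32). Col4a3 and Col4a4, chains of the kidney filter and the cochlea, overlap by 114 bases on chromosome 1 and lay at 0.08 and 0.21. Both were close to the limit for testing, and aged T replicate 1 was far above its group in both, with 35.9 and 30.3 normalized counts against at most 10.7 and 10.9 in the other aged T libraries.

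Of the other collagens, Col19a1 had the smallest p of all members. It encodes a fibril-associated collagen that in the mouse brain is made by interneurons. It had 149, 121, 206, 175 and 114 normalized counts in aged T mice, against a lowest of 173, a median of 297 and a highest of 380 in young T mice. The 5 aged T libraries all lay under the young T median, and 2 of them, 175 and 206, overlapped with the lower young T libraries. On the log2 scale it lay at -0.87 (SE 0.22, adjusted p = 0.600 by limma, 0.147 by DESeq2). Its window at chr1:24587388-24587687 on the minus strand is printed as that of the member with the smallest p, and it holds none of the 3 motifs. GENCODE vM21 starts the gene at 24587922, so by that annotation the window lies inside the gene and not before it.
Col19a1: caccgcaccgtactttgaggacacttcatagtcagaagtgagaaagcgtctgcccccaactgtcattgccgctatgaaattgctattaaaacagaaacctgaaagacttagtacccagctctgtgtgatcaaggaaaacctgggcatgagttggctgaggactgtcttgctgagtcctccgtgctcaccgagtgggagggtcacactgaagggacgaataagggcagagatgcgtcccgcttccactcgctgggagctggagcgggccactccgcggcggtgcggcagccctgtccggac

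Col7a1 encodes the anchoring fibril of skin. It had 23.6, 10.7, 9.01, 7.10 and 8.15 normalized counts in aged T mice, against a lowest of 16.8, a median of 37.2 and a highest of 58.7 in young T mice. Aged T replicate 1 reached into the young T range. Of the 39 members it had the lowest log2 difference, -1.52 (SE 0.41, adjusted p = 0.600 by limma, 0.250 by DESeq2). Col20a1, a fibril-associated collagen, was the remaining member at an unadjusted p under 0.05, with means of 15.7 ± 5.91 in aged T and 28.6 ± 11.2 in young T mice (SD, n = 5 and 6).

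Col18a1, the collagen of vessel and epithelial basement membranes from which endostatin is cut, had 146, 155, 87.8, 44.6 and 70.7 normalized counts in aged T mice. In young T mice its lowest value was 85.2, its median 97.6 and its highest 181, so the aged T libraries lay on both sides of the young T median. It lay at -0.21 on the log2 scale (SE 0.29, adjusted p = 0.845 by limma), and without aged T replicate 4 it was 0.044. The type VI chains, which form beaded microfibrils, had 5 of 5 tested members below 0 and a median of -0.36. Col6a2 and Col6a4 stayed below 0 with any 1 library left out. Col6a3, at -0.018 (SE 0.50), turned sign in 6 such fits. Col6a1 lay at 0.12 without aged T replicate 5, and Col6a5 at 0.30 without aged T replicate 1. The fibril-associated collagens had 6 of 8 below 0, with Col9a3 the highest member at 0.46, and the membrane collagens 1 of 3, with Col25a1 at 0.02.

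Leaving out 1 library at a time, the number of members at an unadjusted p under 0.05 and lower in aged T mice ran from 4 to 11, where 2.12% to 6.01% of all genes did. Col19a1, Col4a2, Col5a2 and Col7a1 were among them in each of the 11 fits. The count was 4 without aged T replicate 4 and 11 without young T replicate 2. Without young T replicate 1, 27 of 39 members lay below 0, among them 9 of 11 fibrillar chains, and the fibrillar median was -0.38. The basement membrane median was -0.28 without aged T replicate 5.

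Markers of collagen-making cells lay lower with the collagens. Of 16 fibroblast markers that are no collagen, 16 lay below 0 with a median log2 difference of -0.52 (-0.36 without young T replicate 1), and 0 were called. Their summed normalized counts ran from 1116 to 2882 (median 1713) in aged T mice and from 1275 to 4039 (median 2304) in young T mice, with replicate 1 the highest young T library. Pericyte and smooth muscle markers had 11 of 12 below 0 (median -0.34; summed 1962 to 3173 in aged T, 2390 to 4576 in young T mice). Endothelial markers had 10 of 12 below 0 (median -0.19; summed 2704 to 3834 in aged T, 2891 to 5091 in young T mice). Choroid plexus markers had 12 of 12 above 0 (median 0.38; summed 2364 to 54614 in aged T, 3010 to 35387 in young T mice). Their median turned to -0.07 without aged T replicate 1 and was 0.91 without aged T replicate 3. Ependymal markers had 8 of 8 above 0 (median 0.62; summed 319 to 892 in aged T, 281 to 512 in young T mice). The endothelial median was -0.11 without aged T replicate 4. No marker of these lists was at 0 throughout a group. With the mean level of the fibroblast markers as a covariate, the median over the 39 collagens was 0.030, 18 lay below 0 and the fibrillar median was -0.034. With the choroid plexus markers as a covariate the median over all members was -0.32. In bulk tissue, fewer cells of a type and less RNA per cell cannot be told apart, and the part of these cell types in the collagen differences was otherwise not tested.

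A precursor of ribosomal RNA, Rn45s, also differed in its share of the reads of these polyA-enriched libraries. It took 0.747% to 1.34% of reads in aged T mice, against 0.350% to 0.795% in young T mice. The highest young T library was replicate 2, the next had 0.467%, and all 5 aged T libraries lay above that. Aged T replicate 5 and young T replicate 2, each with the highest Rn45s share of its group, were also the libraries with the fewest collagen reads in CPM, 266 and 274. With the CD8a antibody Rn45s took 0.556% to 1.30% of reads, against 0.905% to 1.72% with IgG2b. Antibody replicate 5 again had the highest share and the lowest collagen CPM of its group, 180. The IgG2b group differed, as replicate 5 had the highest share with a collagen CPM of 238, and replicate 4 had the lowest collagen CPM, 219. The part of Rn45s in the collagen values was not tested.

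**Figure D3:**
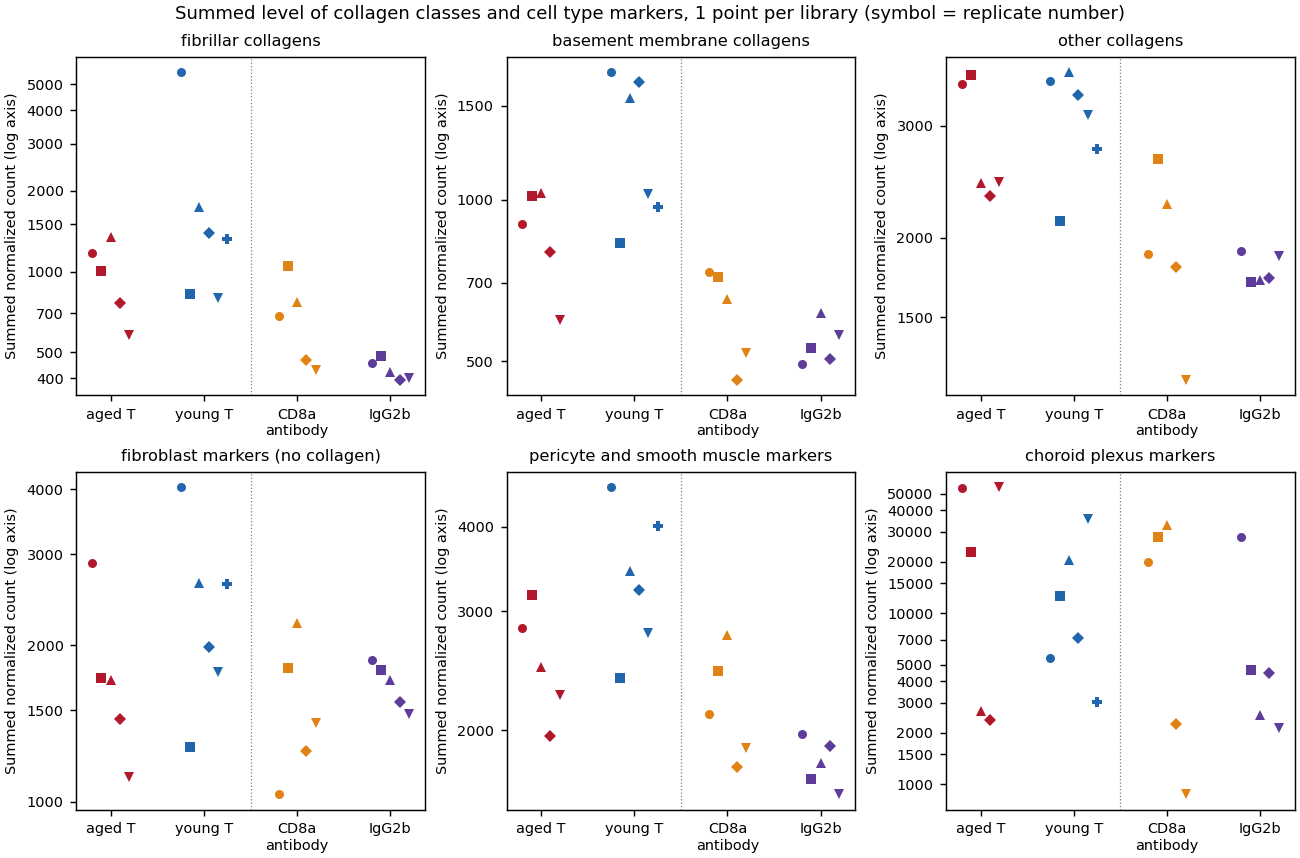
Summed normalized counts on log axes of the collagen classes (top) and of markers of collagen-making and neighbouring cell types (bottom), with 1 point per library in aged T and young T mice and, right of the dotted line, with CD8a antibody and IgG2b, whose table was scaled separately. Young T replicate 1 (circle) is highest for fibrillar collagens, at 5535, and for the fibroblast markers, at 4039.

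Genes that act on collagen were taken from lists by role. Other basement membrane proteins had 17 of 20 members below 0 in aged T mice, with a median of -0.35, and 7 at an unadjusted p under 0.05, all lower, where 51% of all genes lay below 0 and 3.96% were lower at that p. The heparan sulfate proteoglycan Hspg2 averaged 87.3 ± 20.1 normalized counts in aged T and 138 ± 27.0 in young T mice (SD, n = 5 and 6), a log2 difference of -0.68 (SE 0.18). Fibronectin (Fn1) lay at -0.57 and agrin (Agrn) at -0.35. Among processing and crosslinking enzymes 11 of 13 lay below 0, led by the peroxidase Pxdn (-0.39), which crosslinks type IV collagen, the propeptidase Adamts3 (-0.31) and lysyl oxidase (Lox, -1.46). Of the receptors 7 of 8 lay below 0, with the uptake receptor Mrc2 at -0.82, Itga10 at -0.73 and Itga1 at -0.37. Without young T replicate 1, Mrc2 lay at -0.50 and Itga10 at -0.39, and without aged T replicate 4 Lox lay at -0.84.

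Of 20 genes for making collagen inside the cell, 13 lay below 0 with a median of -0.07, so this list lay close to the median of all genes. The smallest p values in it belonged to the glycosyltransferase Colgalt2 (0.41) and to P3h4 (0.47), which both lay higher, and to the hydroxylase P4ha2 (-0.26). Breakdown genes had 4 of 7 below 0 and a median of -0.03, with the protease Mmp9 at -0.77, the inhibitor Timp3 at -0.18 and the protease Ctsk at -0.47. Young T replicate 1 held the highest Mmp9 and Ctsk values, 126 and 319 normalized counts, against at most 21.4 and 50.8 in aged T mice. Without that library Mmp9 lay at -0.29 and Ctsk turned to 0.08, while Timp3 was -0.11 without aged T replicate 4. limma called 0 of the genes on these lists, each of those named having an adjusted p of at least 0.600.

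The second comparison asked how the aged hippocampus differed after the CD8a antibody. Fibrillar chains lay higher with the antibody than with IgG2b, with 10 of 10 tested members above 0 and a median log2 difference of 0.43. Type IV chains had 4 of 4 above 0 and a median of 0.28, and the other collagens 13 of 20 and a median of 0.31. Over the 34 members 27 lay above 0 with a median of 0.40, against 49.6% of 13939 genes and a median of -0.0020 over all genes tested. Where a mean of 50 or more was required, 10 of 16 members lay above 0 with a median of 0.14. Col3a1, Col4a6, Col6a5 and Col13a1 averaged under 10 with IgG2b, so they reached the limit for testing through the antibody group, where they lay higher. Col14a1, which lay below 0, averaged under 10 with the antibody and reached the limit through IgG2b. limma called 0 of 34 members, where 0.00717% of all genes (1 gene) were called, and edgeR, DESeq2 and limma-voom called 0 members as well, where they called 0.00717%, 0.506% and 0.00717% of all genes. At an unadjusted p under 0.05 in either direction they had 8 of 34, 9 of 44 and 4 of 34 members, where 8.97%, 8.19% and 8.48% of all genes were. At an unadjusted p under 0.05, 5 of 34 lay higher, where 4.31% of all genes did, and 0 lay lower, where 4.15% did. In 0 of 34 members did the groups fail to overlap, where 1.27% of all genes lay wholly lower and 0.782% wholly higher with the antibody.

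Col11a2, a chain of the fibrillar type XI collagen of cartilage and inner ear, had the smallest p. It had 307, 417, 201, 193 and 150 normalized counts with the antibody, against 142, 170, 106, 142 and 118 with IgG2b. Of the antibody libraries 4 lay above all IgG2b libraries, and the lowest one, 150, lay inside the IgG2b range. The log2 difference was 0.82 (SE 0.24, adjusted p = 0.324 by limma). The authors' deposited table gives an adjusted p of 0.0531 with a log2 fold change of -0.90, signed as IgG2b over antibody. The gene lies between Rxrb and H2-Oa in the major histocompatibility region of chromosome 17 (34038919 to 34066684, GENCODE vM21). Its promoter window, at chr17:34038888-34039187 on the plus strand, holds a TATA box once and a GC box at 2 places. Most of this window, with all its marked stretches, lies past the gene start that GENCODE vM21 gives.
Col11a2: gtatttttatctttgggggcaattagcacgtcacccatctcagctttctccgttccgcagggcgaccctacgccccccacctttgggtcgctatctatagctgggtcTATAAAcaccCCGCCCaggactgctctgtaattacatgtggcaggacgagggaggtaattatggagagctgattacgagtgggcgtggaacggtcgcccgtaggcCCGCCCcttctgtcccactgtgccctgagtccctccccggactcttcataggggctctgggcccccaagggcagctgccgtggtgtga

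Col3a1 had 8.38, 16.7, 40.1, 20.1 and 18.6 normalized counts with the antibody, against 10.4, 14.9, 6.08, 12.6 and 3.22 with IgG2b. The antibody library of replicate 1 was inside the IgG2b range and the other 4 were above it. Of the 34 members it had the highest log2 difference, 1.05 (SE 0.46, adjusted p = 0.549 by limma). With IgG2b it averaged 9.42, under the limit of 10 for testing, which it passed through the antibody group, where it averaged 20.8. These are low levels, so single reads weigh in each value.

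Col1a1 had 34.7, 76.9, 128, 39.1 and 28.4 normalized counts with the antibody, against 43.2, 33.5, 43.4, 26.8 and 25.8 with IgG2b. Only replicates 2 and 3 of the antibody group lay above the IgG2b range. The log2 difference was 0.62 (SE 0.36, adjusted p = 0.679 by limma), and 0.29 without antibody replicate 3. Col1a2 followed the same libraries, with 68.3, 129, 227, 62.6 and 49.98 with the antibody against 82.9, 75.3, 58.2, 52.8 and 65.5 with IgG2b. Its log2 difference was 0.46 (SE 0.34, adjusted p = 0.738 by limma), and 0.13 without antibody replicate 3. The count ratio of Col1a1 to Col1a2 had a median of 0.569 with the antibody and 0.508 with IgG2b.

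Col5a2 had 45.5, 89.1, 26.7, 24.6 and 31.4 normalized counts with the antibody, against 20.7, 22.3, 30.4, 21.0 and 26.8 with IgG2b. On the log2 scale this is 0.66 (SE 0.32, adjusted p = 0.606 by limma). Without the antibody library of replicate 2, the highest, it was 0.36. Fibrillar chains nearest to 0 were Col27a1 at 0.07 and Col5a1 at 0.18, which without that library lay at -0.12 and -0.09.

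Col4a1 had 292, 286, 267, 190 and 189 normalized counts with the antibody, against 196, 210, 255, 224 and 240 with IgG2b. Col4a2 had 357, 331, 293, 218 and 293 with the antibody, against 239, 286, 333, 239 and 287 with IgG2b. In both genes the antibody libraries lay on both sides of the IgG2b values. The log2 differences were 0.10 (SE 0.15, adjusted p = 0.891 by limma) and 0.10 (SE 0.15, adjusted p = 0.888 by limma), and both were 0.03 without antibody replicate 1. Col4a5, the type IV chain that is mutated in Alport syndrome, had 41.9, 47.9, 38.0, 35.8 and 24.5 with the antibody, against 26.8, 24.2, 16.5, 24.3 and 21.5 with IgG2b. All but the lowest antibody library lay above the IgG2b range, with a log2 difference of 0.69 (SE 0.25, adjusted p = 0.435 by limma).

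Among the other collagens, Col15a1, a collagen of muscle and vessel basement membranes, had 35.9, 55.7, 36.0, 26.8 and 32.3 normalized counts with the antibody, against 21.6, 18.6, 28.7, 24.3 and 22.5 with IgG2b. The antibody library of replicate 4 lay inside the IgG2b range and the others above it, with a log2 difference of 0.64 (SE 0.25, adjusted p = 0.487 by limma). Its relative Col18a1 had 67.1, 120, 173, 42.5 and 46.1 with the antibody, against 70.8, 47.4, 46.0, 36.9 and 45.1 with IgG2b. Antibody replicates 2 and 3, which were also highest for type I collagen, lay above the IgG2b range. It lay at 0.67 on the log2 scale (SE 0.34, adjusted p = 0.632 by limma), and 0.38 without antibody replicate 3.

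Col9a3 had 332, 452, 368, 154 and 104 normalized counts with the antibody, against 314, 121, 109, 125 and 74.1 with IgG2b. IgG2b replicate 1 lay near the 3 high antibody libraries, and the same 4 libraries had the highest summed choroid plexus markers. On the log2 scale it lay at 0.90 (SE 0.41, adjusted p = 0.575 by limma), and 0.61 with the choroid plexus markers as a covariate. In the transfer experiment Col9a3 was likewise highest in aged T replicates 1 and 5, with 612 and 562, the libraries with the highest choroid plexus sums. The neuronal collagens lay on the other side, with Col25a1 at -0.33 (SE 0.24) and Col19a1 at -0.06 (SE 0.19). Without antibody replicate 5 they lay at -0.12 and 0.05. Col19a1 averaged 114 ± 32.9 normalized counts with the antibody and 116 ± 17.9 with IgG2b (SD, n = 5 each).

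Leaving out 1 library at a time, the number of members at an unadjusted p under 0.05 and higher with the antibody ran from 2 to 8, where 3.09% to 7.22% of all genes did. Col11a2 and Col4a5 were among them in each of the 10 fits. The count was 2 without antibody replicate 2, 3 without IgG2b replicate 3, and 8 without antibody replicate 5, which had the lowest summed choroid plexus markers, 873. Without antibody replicate 2 the median over all members was 0.13 and that of the other collagens was 0.01, and 8 of 10 fibrillar chains lay above 0, as they did without IgG2b replicate 1.

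Marker lists lay higher with the antibody too. Fibroblast markers had 15 of 16 members above 0 and a median log2 difference of 0.35, pericyte and smooth muscle markers 8 of 11 and 0.24, and endothelial markers 10 of 12 and 0.22. Single libraries moved these medians, with 0.14 for fibroblast and 0.14 for pericyte and smooth muscle markers without antibody replicate 3, and 0.09 for endothelial markers without antibody replicate 2. The summed fibroblast markers pointed the other way, with 1032 to 2211 (median 1414) with the antibody and 1477 to 1874 (median 1717) with IgG2b. Dcn, which encodes the matrix proteoglycan decorin and is the most abundant of these markers, had 152 to 567 normalized counts with the antibody and 733 to 1032 with IgG2b. The 15 other fibroblast markers summed to 847 to 1834 (median 962) with the antibody and 728 to 1063 (median 843) with IgG2b. Pericyte and smooth muscle markers summed to 1764 to 2768 with the antibody and 1609 to 1973 with IgG2b, and endothelial markers to 2192 to 3408 and 2221 to 2362. Choroid plexus markers had 12 of 12 above 0 (median 0.48; summed 873 to 32809 with the antibody, 2146 to 27851 with IgG2b), with a median of 0.15 without antibody replicate 2 and 1.09 without antibody replicate 5. Ependymal markers had 7 of 7 above 0 (median 0.54; summed 206 to 670 with the antibody, 224 to 483 with IgG2b). Markers of the ventral hippocampus had 6 of 6 below 0 (median -0.69; summed 1052 to 1924 with the antibody, 1960 to 2776 with IgG2b), and those of the dorsal hippocampus 4 of 5 above 0 (median 0.44; summed 3132 to 6225 with the antibody, 2975 to 4045 with IgG2b). With the fibroblast markers as a covariate the median over the 34 collagens was 0.15 and the fibrillar median 0.17, and with the choroid plexus markers the median over all members was 0.27. The part of the dorsal and ventral composition in the collagen values was not tested.

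On the lists of collagen-related genes, 9 of 12 processing and crosslinking enzymes lay above 0 with the antibody, with a median of 0.30. The transglutaminase Tgm2 lay at 0.59 and the propeptidase Bmp1 at 0.59. Against this direction stood the procollagen propeptidase Adamts2, which averaged 93.9 ± 20.1 normalized counts with the antibody and 169 ± 21.8 with IgG2b (SD, n = 5 each). Its log2 difference was -0.86 (SE 0.16), with an adjusted p of 0.148 by limma and 0.00159 by DESeq2. Of the breakdown genes 6 of 7 lay above 0, and the exception was the metalloproteinase inhibitor Timp2, with 2870 ± 501 normalized counts with the antibody and 4740 ± 284 with IgG2b (SD, n = 5 each). Its log2 difference was -0.74 (SE 0.12), with an adjusted p of 0.117 by limma and 4.51e-05 by DESeq2. DESeq2 called 92 genes in all (0.506%), among them these 2 and 0 collagens.

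Collagen receptors had 7 of 8 members above 0 (median 0.29), with Lair1 at 0.34, Ddr1 at 0.25 and Itgb1 at 0.20. Lair1 lay at 0.22 without antibody replicate 2, Ddr1 at 0.13 without antibody replicate 1 and Itgb1 at 0.32 without antibody replicate 5. Other basement membrane proteins had 13 of 20 above 0 (median 0.11), where 49.6% of all genes did, with the laminin chains Lama5 at 0.69 and Lama1 at -0.64 and agrin (Agrn) at 0.21. Lama1 lay at -0.38 without antibody replicate 5. Genes for making collagen had 14 of 20 above 0 (median 0.10), with the hydroxylases P3h3 at 0.57 and P4ha2 at -0.39 and with P3h4 at 0.28. limma called none of the genes on these lists.

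**Figure D4:**
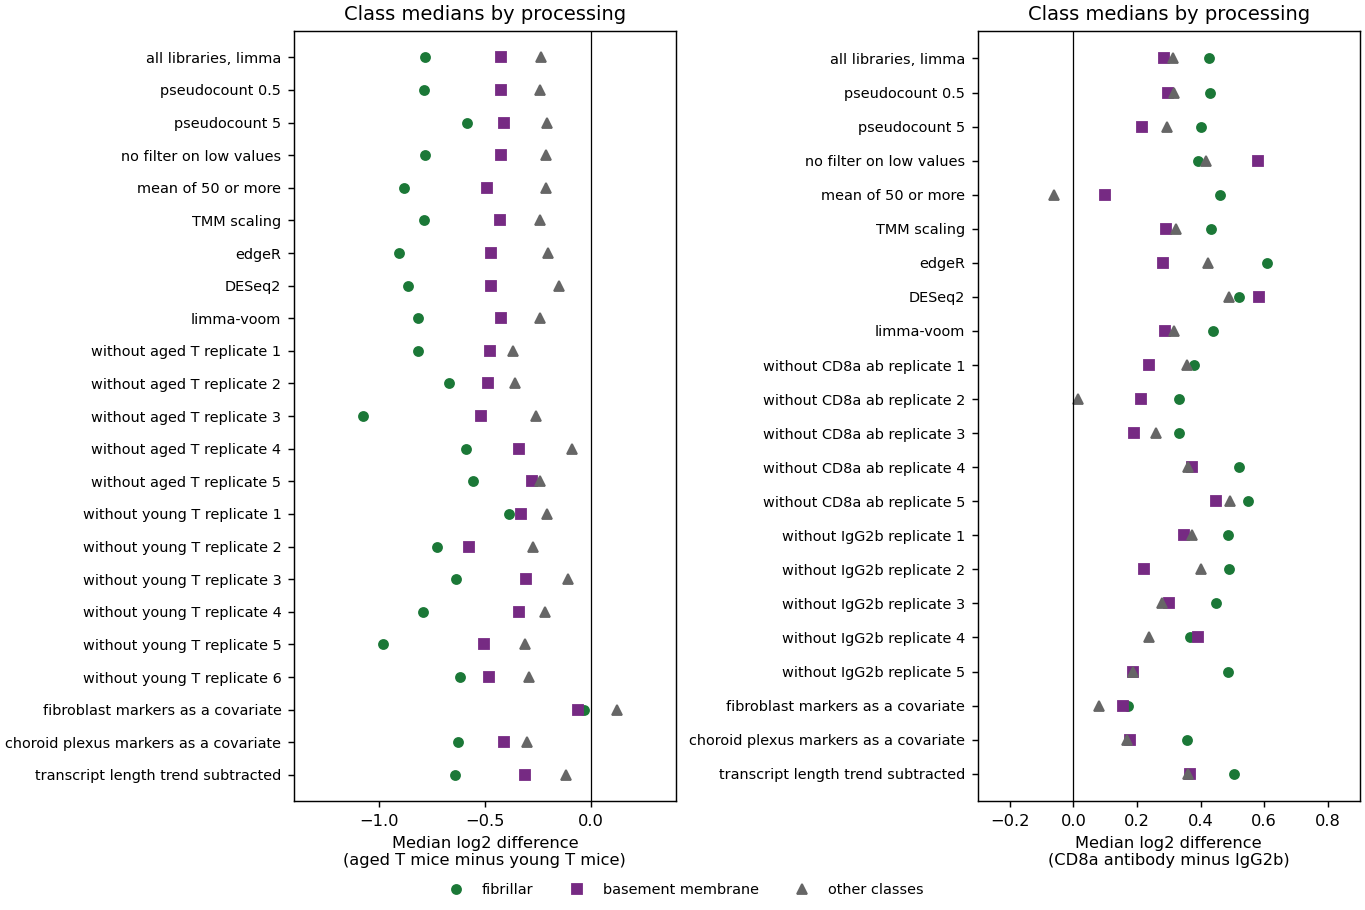
Median log2 difference of fibrillar, basement membrane and other collagens under each way of processing, for aged T minus young T mice (left) and CD8a antibody minus IgG2b (right). The fibrillar median is -0.78 with all libraries and -0.38 without young T replicate 1 on the left, and lies near 0, at -0.034, with the fibroblast markers as a covariate.

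The experiments share no library and were scaled separately, so their differences are set side by side without a test. Of 34 collagens tested in both, 26 lay lower in aged T mice and higher with the CD8a antibody, against 20.7% of 13864 genes tested in both. Another 3 lay lower in both, 4 lay higher in aged T mice and lower with the antibody, and 1 lay higher in both. Most members lay lower in the transfer and most lay higher in the depletion experiment. Such a count follows in large part from these 2 directions, so the 26 are no separate result. Without young T replicate 1 the count was 20, without antibody replicate 2 it was 21 of 33, and the highest count with 1 library left out was 28. Col5a2 lay at -1.02 in the transfer and 0.66 in the depletion experiment, Col3a1 at -1.38 and 1.05, and Col4a2 at -0.65 and 0.10. Col9a3 lay above 0 in both, at 0.46 and 0.90. In CPM, Col1a2 spanned 5.87 to 19.2 in aged T and 9.07 to 140 in young T mice, and 4.20 to 19.4 with the antibody against 4.38 to 7.01 with IgG2b. Age and experiment cannot be told apart in such levels across the experiments.

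The spread within groups differed between members. On the log2 scale the pooled within-group SD had a median of 0.74 over the members tested in the transfer, where it was lowest for Col15a1 at 0.30 and highest for Col8a1 at 1.35. In the depletion experiment the median was 0.62, with Col4a2 lowest at 0.24 and Col8a2 highest at 1.88. The short-chain collagens Col8a1 and Col8a2, which form lattices in the cornea, had wide errors. They lay at -0.07 (SE 0.64) and 0.17 (SE 0.51) in the transfer, and at 0.67 (SE 0.78) and -0.16 (SE 0.91) in the depletion experiment. In the depletion experiment Col8a1 lay at 0.13 without antibody replicate 2, and Col8a2 turned to 0.92 without antibody replicate 5. In the transfer they lay at -0.57 and -0.09 without aged T replicate 1, and at 0.39 and 0.65 without aged T replicate 4. With the choroid plexus markers as a covariate they lay at -0.40 and -0.08 in the transfer, and at 0.13 and -0.75 in the depletion experiment.

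As a description of which genes varied with type I and type IV collagen from library to library, Pearson correlations of log2 values were taken after subtracting group means, leaving out the collagens themselves. With Col1a1, the closest genes over the 11 transfer libraries were Sspo (r = 0.966), Adgra3, Spp1, Afap1 and Bgn (0.934), and young T replicate 1 was the highest library for Sspo, Spp1 and Bgn. Over the 10 depletion libraries they were Slc22a6 (0.953), Gjb2, Echdc3, Fbln1 and Phldb2 (0.911), of which Slc22a6 and Gjb2 are on the fibroblast list. With Col4a1 they were Ndor1 (0.979), Lrrc16b, Nbeal2, Clasrp and Nrbp2 (0.936) in the transfer, and Tnfrsf1b (0.932), Ulk1, Slc45a4, Fam160b2 and Ercc5 (0.882) in the depletion experiment. No gene was shared between the experiments on either list of 5, and both genes of each pair come from the same libraries, which differ in depth and in their choroid plexus markers.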

How the data were processed

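RNA of the hippocampus was sequenced from polyA-enriched, strand-specific paired-end libraries, per the labels' protocols. The submitters' processing notes name STAR, RSEM, DESeq2 and mm10, without versions or roles, and how reads were counted is not given in the sources used here. Each deposited table holds a normalized signal, read count over a size factor, per the file headers and values. All values were whole multiples of 1 step per library (100%, relative tolerance 1e-06), so reads could be recovered. The authors' deposited tables also give log2 fold changes, test scores, p-values and adjusted p-values, signed as control over treated.

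Here limma 3.58.1 (limma-trend, R 4.3.3) was fitted to log2(normalized count + 1) of genes with a mean of 10 or more, each experiment alone without covariates, with Benjamini-Hochberg adjustment over all genes and calls at an adjusted p under 0.05. This log2 scale understates differences of weakly expressed genes. Alternatives on recovered reads were limma-voom, DESeq2 1.42.0 and the quasi-likelihood test of edgeR 4.0.16. The fits were tested on simulated data. Members, classes, marker lists and pathway lists were chosen with earlier results of these data known, so no list was tested. In full were described the 6 members with the smallest p per comparison plus 6 set members, and of each pathway list the called genes or the 3 with the smallest p. Lengths and gene positions are from GENCODE vM21 (GRCm38), which matched 44 of 44 members. The smallest chi-square per degree of freedom between libraries of a group was 7.11, so no library was a copy of another. Replicates were numbered in the order of the records. Read totals limit precision through counting error only.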

Additional observations from a re-analysis of the deposited data

Results flagged for a closer look

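In 146 sets of values, each of 1 member in 1 group, the lowest and the highest library were tested. A library's value was called far from its group when its gap to the next library took up an unusually large part of the group's range (Dixon's criterion). For independent, normally distributed values about 1 such case in 20 groups arises by chance. The values here were normalized counts without a log, and members share libraries, so that rate is no yardstick for the 17 cases found. Of these, 6 were young T replicate 1, which was highest of its group for Col11a1 (325 normalized counts, next 135), Col14a1 (57.3, next 19.6), Col1a1 (1614, next 140), Col1a2 (1870, next 326), Col2a1 (120, next 21.9) and Col3a1 (275, next 89.4). Aged T replicate 1 was highest for Col4a3 (35.9, next 10.7), Col4a4 (30.3, next 10.9) and Col7a1 (23.6, next 10.7). IgG2b replicate 1 was highest for Col8a1 (140, next 33.5), Col8a2 (112, next 48.3) and Col9a3 (314, next 125). Single cases were aged T replicate 3 for Col24a1 (36.0, next 8.51), young T replicate 3 for Col18a1 (181, next 109), antibody replicate 2 for Col16a1 (142, next 64.7) and IgG2b replicate 5 for Col6a3 (60.1, next 22.4). Young T replicate 2 was lowest of its group for Col6a4, with 7.36 against 34.2 in the next library.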

How the results depend on the processing

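No collagen was called under any alternative run in either experiment, and the lowest adjusted p over all of them was 0.147 in the transfer and 0.0531 in the depletion experiment, both with DESeq2. With each library left out in turn, 24 of 39 members kept their sign in the transfer and 23 of 34 in the depletion experiment, and 30 and 28 moved by over 1.5 times or turned without at least 1 library. In the transfer, 32 of 39 members lay below 0 with the limit of 10, 20 of 24 where a mean of 50 or more was required, and 18 of 39 with the fibroblast markers as a covariate. With that covariate the medians were 0.030 over all members, -0.034 for fibrillar and 0.12 for other collagens, and the log2 differences of Col1a2 and Col18a1 were 0.030 and 0.12. Col18a1 ran from -0.40 to 0.044 with 1 library left out, and the count at an unadjusted p under 0.05, an alternative added after seeing the data, from 4 to 11. In the depletion experiment, 1 gene was called over all genes, 0 with no limit on low values, 92 with DESeq2, and 0 to 25 with 1 library left out, 25 being the count without antibody replicate 5. The basement membrane median was 0.58 with no limit on low values and 0.58 with DESeq2, fits that add the weakly expressed members Col4a3 and Col4a4. Where a mean of 50 or more was required, 6 of 16 members lay below 0, against 7 of 34 with the limit of 10, and the median of the other collagens was -0.061. The difference of a member is the same under both limits, so these counts and medians follow from the members left. With 1 library left out, 4 to 11 members lay below 0 and the count at an unadjusted p under 0.05 ran from 2 to 8. For the covariate the cause was not tested. Longer transcripts lay lower across genes in both experiments (Spearman rho -0.512 over 13656 genes and -0.301 over 13440), and with that trend subtracted the collagen medians were -0.24 and 0.48. No paired analysis was possible because replicates carry no number that the groups share. Members near the limit of 10 rest on few reads, and their differences are the least certain.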
